A study of Mus musculus with 6 samples.

Results

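Colony stimulating factor 1 receptor (CSF1R), its ligands and related receptors were examined in endothelial cells of mouse liver: Csf1r, Csf1, Il34, Kit, Kitl, Flt3, Flt3l, Pdgfra, Pdgfrb and Csf3r. They were taken by gene symbol as the target of the drug given, its ligands and the receptors most like it, and all 10 were among the 26264 genes of the deposited expression table. C57BL6 mice were compared after 1 month on chow containing 1200 ppm PLX5622 and after 1 month on control chow, with 3 biological replicates per diet and no other manipulation named in the labels. PLX5622 blocks the kinase of CSF1R and is given by mouth. Cells carrying CD31 were sorted from 1 dissociated liver lobe, polyadenylated RNA was sequenced, and the study asked whether the drug alters cholesterol metabolism in endothelium outside the brain. Levels are given in TPM, a share of transcripts corrected for gene length, and neither age nor sex of the animals is among the labels.

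CSF1R, KIT, FLT3 and the PDGF receptors are type III receptor tyrosine kinases: each has a split kinase domain inside the cell and pairs up when its ligand binds. Most tissue macrophages, including the Kupffer cells that lie within the liver sinusoid, need CSF1R signalling to survive, and CSF1 and IL-34 are its known ligands. KIT binds the stem cell factor made from Kitl, FLT3 binds the ligand made from Flt3l, and the PDGF receptors belong to stellate cells and fibroblasts in liver. Csf3r encodes the receptor of granulocyte colony stimulating factor, which has no kinase of its own and is best known from neutrophils. Drugs that bind the CSF1R kinase can also bind KIT, FLT3 or the PDGF receptors, which is why these genes are looked at together.

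Of the 10 genes, Csf1r had lower values and Csf3r had higher values on PLX5622, and the ligands Kitl, Flt3l and Il34 and the receptors Kit and Pdgfrb overlapped between the diets. Csf1 was lower on PLX5622 in each library, by a smaller amount. None of these differences passed the test across all genes. With limma on log2(TPM + 1), 8 of the 10 were tested, while Flt3 and Pdgfra lay under a mean level of 1 TPM and are described by their values. In the limma fit 0 of the 8 had an adjusted p under 0.05, against a background of 0.0% of the 13739 genes tested, and the smallest adjusted p of any gene was 0.99998. At an unadjusted p under 0.05 stood 2 of the 8, where the background was 3.34% of all genes tested: 1 higher on PLX5622 (background 1.64%) and 1 lower (background 1.7%). Between the diets 3 of the 8 did not overlap, where the background was 8.68%: 1 was higher on PLX5622 (background 4.18%) and 2 were lower (background 4.5%). The median log2 fold change of the 8 was -0.05, beside -0.02 over all genes tested, of which 46.2% had a fold change above 0. In the authors' deposited table, which holds 9 of the 10 genes, 0 pass an adjusted p of 0.05, against 0.0729% of its 15097 genes, and 2 have an unadjusted p under 0.05, against 3.18%.

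**Figure D1:**
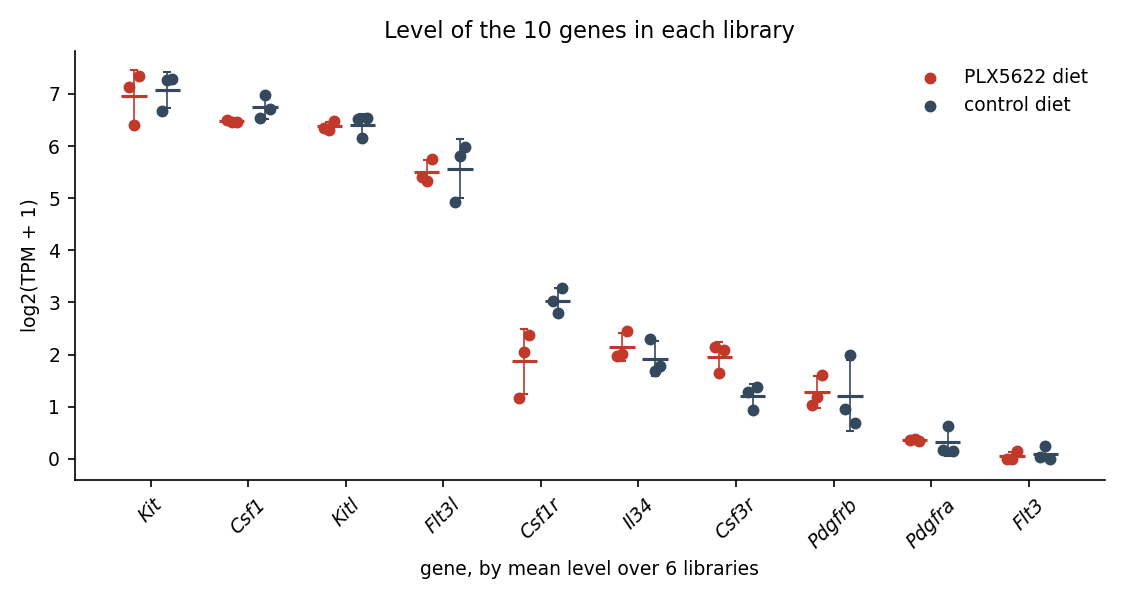
Level of each gene on a log2(TPM + 1) axis, ordered by its mean over the 6 libraries; each point is a library, horizontal bars are means and whiskers are 1 SD (n = 3 per diet, PLX5622 left of control). The PLX5622 points lie below the control points for Csf1r and Csf1 and above them for Csf3r, and 4 genes stand well above the other 6.

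The libraries held between 14517959 and 32732212 reads, as recovered from the deposited values. Pecam1, the gene of CD31, stood at 1712 ± 148 TPM on PLX5622 and at 1682 ± 259 TPM on the control diet (SD, n = 3 each), so the defining marker of the sorted cell was present in both. The 12 endothelial and sinusoidal markers summed to between 15899 and 18294 TPM on PLX5622 and to between 15502 and 19399 TPM on control. Among them the log2 fold change was 0.40 for the Fc receptor gene Fcgr2b, -0.64 for the scavenger receptor gene Stab2 and -0.11 for its relative Stab1, and none passed the adjusted test. Hepatocyte markers summed to between 1378 and 2747 TPM on PLX5622 and to between 2115 and 4887 TPM on control, with the highest sum in control replicate 1. All 12 had a fold change below 0, where 46.2% of all genes tested lay above 0. The log2 fold change was -1.13 for the albumin gene Alb, -0.69 for the transferrin gene Trf and -0.41 for the urea cycle gene Ass1, and the part of hepatocyte RNA in the results below was not tested. The labels call the replicates biological without naming animals, so p-values measure the spread between these samples. Libraries of 1 diet differed by more than sampling noise, with a chi-square per degree of freedom of at least 15.6 in every pair. The value of 15.6 was that of control replicates 2 and 3, from which control replicate 1 differed by 87.1 and 54.5. On PLX5622 the pairs lay between 23.9 and 33.0. In bulk RNA, fewer cells of a type and less RNA per cell cannot be told apart.

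Csf1r encodes the kinase that PLX5622 binds. It had 1.26, 3.13 and 4.21 TPM in the PLX5622 libraries and 7.13, 5.99 and 8.68 TPM in the control libraries. The diets did not overlap, the PLX5622 values being the lower, and the lowest value was that of PLX5622 replicate 1. These levels rested on 38, 73 and 117 reads on PLX5622 and on 268, 265 and 170 reads on control. The mean was 2.87 ± 1.49 TPM on PLX5622 and 7.27 ± 1.35 TPM on control (SD, n = 3 each), a ratio of 0.395. The log2 fold change of PLX5622 over control was -1.17 (95% interval -1.95 to -0.38), with a limma p of 0.00957 before and 0.99998 after adjustment over all genes. The authors' deposited table gives a log2 fold change of -1.33 (SE 0.400) with an adjusted p of 0.398. The PLX5622 libraries varied more among themselves than the control libraries did: without PLX5622 replicate 1 the log2 fold change was -0.82. In the annotation at hand 15.1% of the exonic bases of Csf1r are shared with Hmgxb3, and reads there could not be told apart without strand. Hmgxb3 itself stood at 27.7 ± 2.43 TPM on PLX5622 and at 26.5 ± 1.81 TPM on control (SD, n = 3 each), and its log2 fold change was 0.06.

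Most of the tested markers of Kupffer cells also had a fold change below 0, and no macrophage marker passed the adjusted test. Of 15 Kupffer cell markers 14 were tested and 12 had a fold change below 0, with a median of -0.72. Over all genes tested 46.2% lay above 0 and the median was -0.02. An unadjusted limma p under 0.05 was held by 4 of the markers, all of them lower on PLX5622, where the background in that direction was 1.7%. Clec4f, a lectin of Kupffer cells, had 3.37, 10.1 and 10.2 TPM on PLX5622 and 21.98, 13.1 and 34.6 TPM on control. The complement gene C1qa, with 5.46, 13.1 and 7.86 TPM on PLX5622 and 19.1, 16.4 and 18.3 TPM on control, likewise did not overlap. The complement gene C1qb averaged 15.3 ± 2.78 TPM on PLX5622 and 26.1 ± 7.65 TPM on control (SD, n = 3 each). The marker list summed to between 123 and 217 TPM on PLX5622 and to between 207 and 316 TPM on control, and no marker was at 0 in all 6 libraries. Slc40a1 held a large part of that sum, at 72.2 ± 27.4 TPM on PLX5622 and 71.7 ± 36.0 TPM on control (SD, n = 3 each). Like Timd4, Vsig4 and C1qc, it overlapped between the diets. For the mean log2(TPM + 1) of the 15 markers the exact two-sided permutation p was 0.2. Among 13 markers of monocytes and macrophages 7 were tested, and all 7 had a fold change below 0, with a median of -1.27. Of these 4 had an unadjusted p under 0.05. Some of the 7, Spi1 and Pld4 among them, passed the filter through the control libraries, so the count supports no statement on the list. Spi1, which encodes the myeloid transcription factor PU.1, had 4, 4 and 1 reads on PLX5622 and 39, 53 and 44 reads on control. Pld4, a nuclease of myeloid cells, had 4, 6 and 9 reads on PLX5622 and 57, 65 and 51 reads on control. This second list summed to between 88.8 and 126 TPM on PLX5622 and to between 110 and 193 TPM on control. The part of macrophage content in the Csf1r difference was not tested.

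Set against the Kupffer cell markers within each library, Csf1r had lower values on PLX5622 when the list was summarised by its mean. Its log2(TPM + 1) minus the mean of the 15 markers was -1.15, -1.10 and -0.56 in the PLX5622 libraries and -0.32, -0.24 and -0.40 in the control libraries. The diets did not overlap, and the difference was -0.62. The exact permutation p, two-sided, was 0.1, and no smaller value can arise from 3 libraries per diet. The value depended on how the list was summarised, since with the median of the markers in place of the mean it was -0.17, with an exact permutation p of 0.7. Single markers of the list differed, with a log2 fold change of -1.47 for Clec4f, -1.22 for Vsig4, -0.12 for Timd4 and 0.09 for Slc40a1. That of Csf1r was -1.17. Relative to the 13 monocyte and macrophage markers the values were -0.22, 0.49 and 0.85 on PLX5622 and 0.85, 0.88 and 0.76 on control, which overlap. The gene whose pattern over the 6 libraries lay closest to that of Csf1r was Mpeg1, a pore-forming protein of macrophages, with a root mean square difference of 0.108 on the centred log2 scale. Mpeg1 had 1.12, 2.34 and 3.72 TPM on PLX5622 and 6.47, 5.22 and 9.07 TPM on control, so both genes put the libraries in the same order. Next came Ccr7, a chemokine receptor of dendritic cells and lymphocytes, at 0.213, Ly86, a partner of a Toll-like receptor homologue, at 0.256, the histone gene H4f16 at 0.278 and Kmo, an enzyme of tryptophan breakdown, at 0.286. These genes are weakly expressed, with a mean of at most 6.92 TPM on either diet, and H4f16 belongs to a family of near-identical copies.

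**Figure D2:**
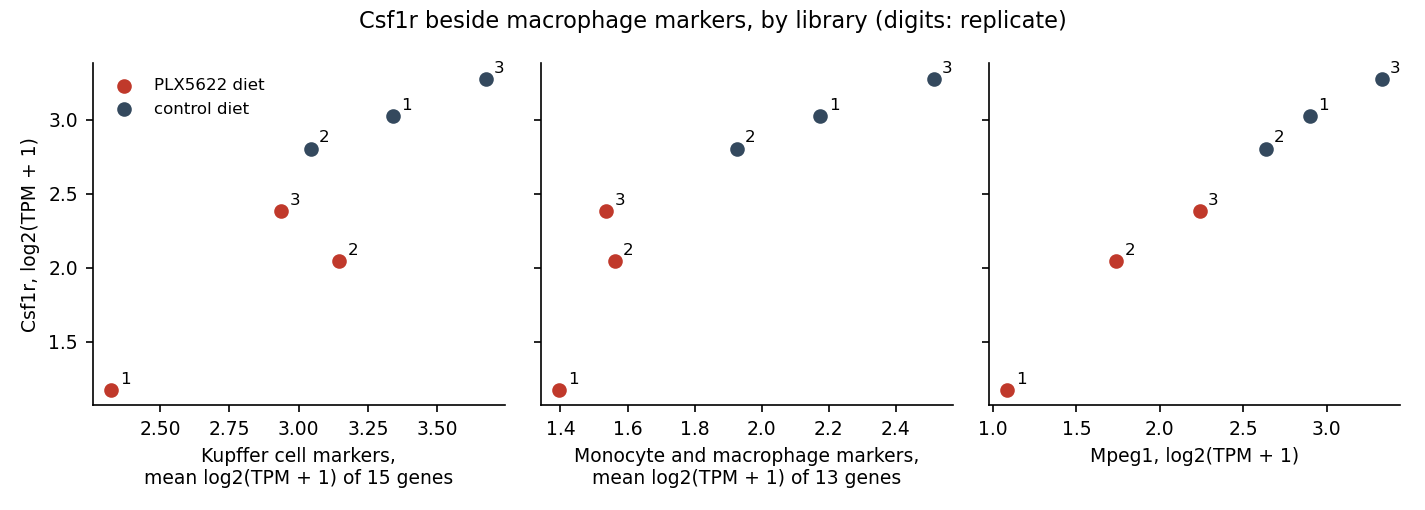
Csf1r against the mean of 15 Kupffer cell markers, the mean of 13 monocyte and macrophage markers and Mpeg1, each on a log2(TPM + 1) axis, 1 point per library with its replicate number. The control libraries lie highest on the Csf1r axis, control replicate 2 overlaps the PLX5622 libraries on the Kupffer axis, and PLX5622 replicate 1, at 1.18 on the Csf1r axis, lies at the lower left.

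Csf1, the ligand that maintains Kupffer cells, was expressed far above its receptor. It had 89.4, 86.8 and 87.1 TPM in the PLX5622 libraries and 92.1, 126 and 104 TPM in the control libraries. The PLX5622 values lay close together and below the control values, though the gap between the nearest libraries, PLX5622 replicate 1 and control replicate 1, was small beside the spread of the control group. The mean was 87.8 ± 1.40 TPM on PLX5622 and 107 ± 17.2 TPM on control (SD, n = 3 each). The log2 fold change was -0.28 (95% interval -0.56 to 0.01), with a limma p of 0.0556 and an adjusted p of 0.99998. It was -0.38 without control replicate 1, with an unadjusted limma p of 0.00991 and an adjusted p of 0.8003, and -0.16 without control replicate 2. The authors' deposited table gives -0.28 (SE 0.149), with an unadjusted p of 0.0622.

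Il34, the second ligand of CSF1R, was weakly expressed. It had 2.90, 3.04 and 4.50 TPM on PLX5622 and 3.94, 2.21 and 2.45 TPM on control, from 23 to 71 reads per library. The diets overlapped, and the log2 fold change was 0.22 (95% interval -0.43 to 0.88), an interval that takes in both a lower and a higher level. It was 0.07 without PLX5622 replicate 3, 0.10 without control replicate 2 and 0.41 without control replicate 1. Csf1 exceeded Il34 by 30.8, 28.5 and 19.4 times in the PLX5622 libraries and by 23.4, 56.9 and 42.4 times in the control libraries. On both diets Csf1 was thus the more abundant transcript of the ligand pair.

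Ratios within a library show ligand and receptor side by side. Csf1 exceeded Csf1r by 71.0, 27.7 and 20.7 times on PLX5622 and by 12.9, 21.03 and 12.0 times on control. PLX5622 replicate 3 and control replicate 2 overlapped in this ratio, and the exact two-sided permutation p was 0.2, or 0.4 adjusted over the 4 ratios computed. Il34 over Csf1r was 2.30, 0.971 and 1.07 on PLX5622 and 0.552, 0.370 and 0.282 on control, without overlap, with an exact permutation p of 0.1 and an adjusted p of 0.4. For Csf1 over Il34 the exact permutation p was 0.3 and the adjusted p 0.4. Both ratios over Csf1r rest on the few reads of that receptor.

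**Figure D3:**
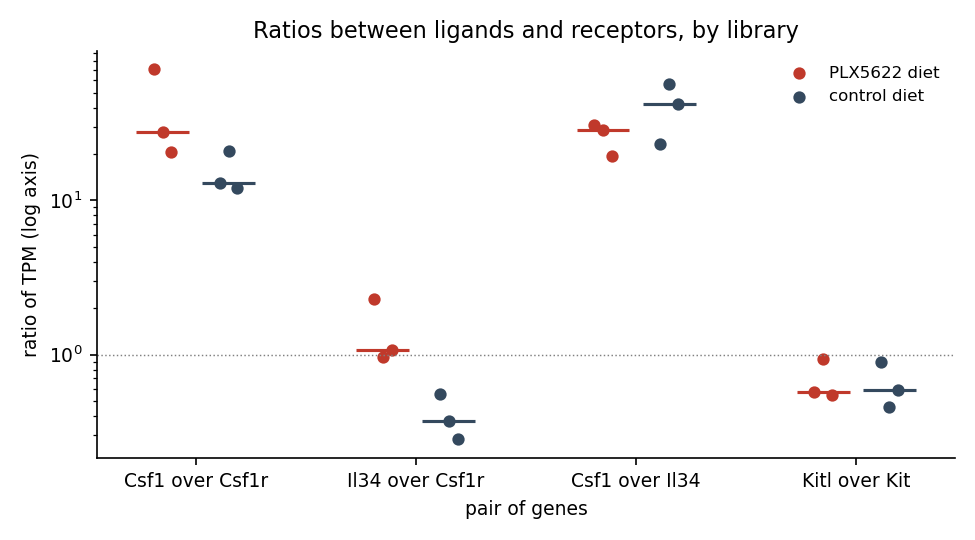
Ratio of TPM for 4 pairs of genes on a log axis; each point is a library, horizontal bars are medians, PLX5622 left of control, and the dotted line marks equal levels. Il34 over Csf1r separates the diets, at 0.971 to 2.30 on PLX5622 and 0.282 to 0.552 on control, while Kitl over Kit does not.

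Kit and Kitl were both expressed at high levels and did not differ detectably between the diets. Kit, which in liver endothelium is known from the side of the central vein, had 140, 83.1 and 161 TPM on PLX5622 and 101, 152 and 156 TPM on control. PLX5622 replicate 2 and control replicate 1 were the low libraries, so the diets overlapped throughout. The log2 fold change was -0.12 (95% interval -0.74 to 0.50), with an adjusted p of 0.99998 in limma. Kitl had 80.5, 78.1 and 88.0 TPM on PLX5622 and 90.5, 69.8 and 91.6 TPM on control. Its log2 fold change of -0.02 had a narrow 95% interval, -0.32 to 0.27. Kitl over Kit was 0.576, 0.939 and 0.547 on PLX5622 and 0.894, 0.459 and 0.588 on control, and the exact permutation p was 0.8 (two-sided).

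Kit is also the receptor on which mast cells depend, but 7 of 8 mast cell markers, Cpa3 among them, were listed at 0 in all 6 libraries. The exception was Hdc, which makes histamine, with 204, 128 and 99.3 TPM on PLX5622 and 241, 164 and 154 TPM on control. The 7 markers of endothelium near the central vein summed to between 7334 and 10353 TPM on PLX5622 and to between 6398 and 9561 TPM on control. Among them Rspo3, a secreted enhancer of Wnt signalling, averaged 1525 ± 395 TPM on PLX5622 and 1357 ± 448 TPM on control (SD, n = 3 each), and 0 of the 7 had an unadjusted p under 0.05. The Wnt ligand gene Wnt2 averaged 433 ± 103 TPM on PLX5622 and 386 ± 26.9 TPM on control (SD, n = 3 each). Fabp4, a fatty acid binding protein, was at a log2 fold change of 0.33 (95% interval -0.07 to 0.74).

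Flt3l was well expressed and its receptor was almost undetected. Flt3l, a growth factor of dendritic cells and progenitors, had 41.5, 39.2 and 53.1 TPM on PLX5622 and 29.2, 55.1 and 61.9 TPM on control. The control libraries spanned the whole PLX5622 range, and the log2 fold change was -0.07 (95% interval -0.70 to 0.56). Without control replicate 1, the lowest library, it was -0.40, with an unadjusted limma p of 0.0371 and an adjusted p of 0.804. In the annotation at hand 22.1% of the exonic bases of Flt3l are shared with a second gene model that the expression table does not name. Flt3 was listed at 0, 0 and 0.114 TPM on PLX5622 and at 0.0282, 0.192 and 0 TPM on control. The smallest read numbers that fit these values are 0, 0 and 3 on PLX5622 and 1, 8 and 0 on control. A count of 0 still allows up to 0.105 and 0.136 TPM in PLX5622 replicates 1 and 2 and up to 0.162 TPM in control replicate 3, so a difference in Flt3 was not detectable at this depth.

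Of 10 dendritic cell markers 4 were tested and 3 had a fold change below 0, where 46.2% of all genes tested lay above 0. Batf3, a transcription factor of dendritic cells, had 2.89, 2.34 and 1.96 TPM on PLX5622 and 5.50, 4.55 and 5.004 TPM on control, a log2 fold change of -0.83 (95% interval -1.36 to -0.30). Irf8, a transcription factor of myeloid cells, had 38.8, 32.5 and 21.2 TPM on PLX5622 and 49.5, 41.8 and 47.4 TPM on control. Neither gene overlapped between the diets, and both had an unadjusted limma p under 0.05, at 0.00722 and 0.0215, where the backgrounds in that direction were 4.5% for no overlap and 1.7% for the p. Their adjusted p was 0.99998, and Batf3 rested on at most 16 reads per library on PLX5622 and at most 38 on control. Zbtb46, which endothelial cells are known to express as well, averaged 56.1 ± 10.8 TPM on PLX5622 and 70.1 ± 4.61 TPM on control (SD, n = 3 each). The defining markers Xcr1, Siglech and Itgax averaged at most 0.317 TPM on either diet, while the lectin gene Clec9a stood between 27.8 and 40.1 TPM on PLX5622 and between 16.3 and 40.6 TPM on control. The list summed to between 120 and 131 TPM on PLX5622 and to between 139 and 169 TPM on control. Zbtb46, Irf8 and Clec9a made up most of each sum, and the part of dendritic cell content in it was not tested.

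The PDGF receptors were near the lower limit of expression. Pdgfrb, the receptor of stellate cells and pericytes, had 1.04, 1.29 and 2.06 TPM on PLX5622 and 0.933, 2.99 and 0.622 TPM on control. Control replicate 2 held both the highest level and the most reads, 185, against 17 in control replicate 3. The log2 fold change was 0.07 (95% interval -0.90 to 1.03), while the mean TPM ratio was 0.967 and the authors' deposited table gives -0.06, so no direction was established. Pdgfra, a receptor of fibroblasts and related cells, had 0.283, 0.309 and 0.275 TPM on PLX5622 and 0.132, 0.539 and 0.115 TPM on control, from 5 to 53 reads per library. The highest value was again in control replicate 2, and the PLX5622 libraries lay between the control values. The authors' deposited table gives a log2 fold change of 0.12 (SE 0.809) for it.

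Of the 4 ligands of these receptors, Pdgfa, Pdgfb and Pdgfd were more abundant than both receptors, and Pdgfc was not. Pdgfb, which endothelium is known to secrete to recruit pericytes, had 53.7, 49.4 and 75.4 TPM on PLX5622 and 55.1, 50.9 and 62.3 TPM on control. Pdgfd, a ligand of PDGFRB, averaged 36.5 ± 2.62 TPM on PLX5622 and 39.7 ± 5.58 TPM on control (SD, n = 3 each), and Pdgfa, a ligand of PDGFRA, averaged 9.69 ± 1.57 TPM on PLX5622 and 9.95 ± 3.68 TPM on control. Pdgfc, a ligand of PDGFRA, lay under the filter, with 0.179, 0 and 0.312 TPM on PLX5622 and 0.518, 0.562 and 0.332 TPM on control. Its values did not overlap, from at most 8 reads per library on PLX5622 and at most 23 on control. Of the 4 ligand genes 3 were tested and 0 had an unadjusted p under 0.05. The 12 markers of stellate cells and fibroblasts, of which 8 were tested, gave 4 above and 4 below 0 and 0 at an unadjusted p under 0.05. They summed to between 66.0 and 106 TPM on PLX5622 and to between 58.1 and 102 TPM on control, with the highest control sum in replicate 2. Among them Lrat, which stores vitamin A in stellate cells, averaged 2.33 ± 0.662 TPM on PLX5622 and 1.37 ± 0.895 TPM on control (SD, n = 3 each). The proteoglycan gene Dcn averaged 14.2 ± 2.66 TPM on PLX5622 and 10.9 ± 3.33 TPM on control, and the smooth muscle actin gene Acta2 averaged 5.91 ± 1.69 TPM on PLX5622 and 8.77 ± 3.82 TPM on control (SD, n = 3 each).

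Csf3r was the 1 gene of the 10 that was higher on PLX5622 in every library. The promoter of the human gene is known as a target of the myeloid factor PU.1, and the mouse promoter is shown for orientation, with its copy of the letters GAGGAA, the core of a PU.1 site, in capitals. The sequence is from RefSeq, build GRCm38.p6, chr4:126024409-126024658, plus strand, and ends at the base before the transcription start.
Csf3r promoter: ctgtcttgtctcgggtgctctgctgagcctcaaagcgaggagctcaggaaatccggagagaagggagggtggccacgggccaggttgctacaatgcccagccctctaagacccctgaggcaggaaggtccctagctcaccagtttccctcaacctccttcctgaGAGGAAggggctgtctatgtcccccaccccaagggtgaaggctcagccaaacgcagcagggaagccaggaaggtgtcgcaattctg
The letters begin 86 bases before the start. They were searched on both strands in the 250 bases before each start examined, and 23.3% of 32851 such windows hold them. Windows of 7 of the 10 genes were examined, and 2 of these genes hold the letters, Csf3r and Kit. Csf1r, Il34 and Pdgfrb were not among the genes examined, so whether their promoters hold the letters was not tested. A match of letters is not a measured binding site. Bases after the start were not searched, and whether the marked copy corresponds to a PU.1 site of the human gene was not tested.

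Csf3r had 3.43, 2.14 and 3.27 TPM in the PLX5622 libraries and 1.43, 0.909 and 1.61 TPM in the control libraries. The lowest PLX5622 library, replicate 2, lay above the highest control library. These were 108, 52 and 95 reads on PLX5622 and 56, 42 and 33 reads on control. The mean was 2.95 ± 0.705 TPM on PLX5622 and 1.316 ± 0.365 TPM on control (SD, n = 3 each), a ratio of 2.24. The log2 fold change was 0.76 (95% interval 0.10 to 1.43), with a limma p of 0.0300 and an adjusted p of 0.99998. The authors' deposited table gives 1.19 (SE 0.413), with an adjusted p of 0.809. With limma's voom on the recovered reads it was 1.28, and with a pseudocount of 5 TPM it was 0.33.

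Neutrophil markers were near 0 in the libraries where Csf3r was measured. Of 12 such markers 1 passed the filter, and Ly6g, Mpo and Mmp8 were listed at 0 in all 6 libraries. The list summed to between 0.772 and 4.43 TPM on PLX5622 and to between 1.09 and 7.42 TPM on control. S100a8, a calcium-binding protein abundant in neutrophils, had 0.983, 0 and 1.78 TPM on PLX5622 and 3.94, 0 and 0 TPM on control. These S100a8 values rest on at most 15 reads, and the part of neutrophil content in the Csf3r difference was not tested. The genes whose patterns lay closest to that of Csf3r were Fmc1, an assembly factor of the mitochondrial ATP synthase, at a root mean square difference of 0.153, and Vegfd, a growth factor of lymphatic endothelium, at 0.158. Vegfd had 6.62, 6.10 and 7.05 TPM on PLX5622 and 4.75, 2.86 and 4.02 TPM on control. Hapln3, a linker of hyaluronan, followed at 0.161, then the semaphorin gene Sema7a at 0.165 and the imprinted gene Nnat at 0.171. Sema7a averaged 22.9 ± 2.61 TPM on PLX5622 and 14.9 ± 2.10 TPM on control (SD, n = 3 each).

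**Figure D4:**
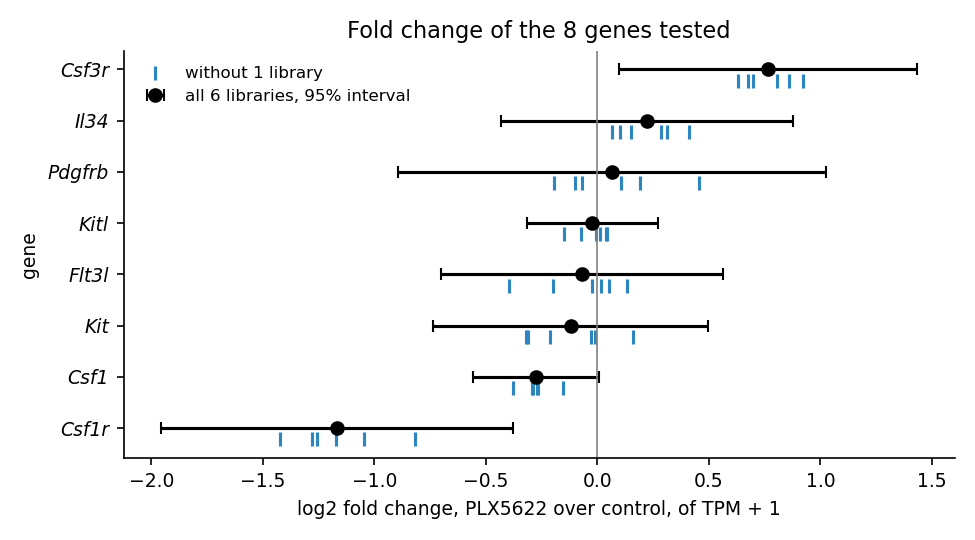
Log2 fold change of PLX5622 over control for the 8 genes tested, from limma on log2(TPM + 1): black points with 95% intervals are from all 6 libraries and blue ticks are from fits without 1 library. The intervals of Csf1r (-1.95 to -0.38) and Csf3r (0.10 to 1.43) do not include 0, and the blue ticks of Kit, Flt3l, Kitl and Pdgfrb fall on both sides of it.

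In order of level, Kit, Csf1, Kitl and Flt3l led on both diets. Kit averaged 128 ± 40.1 TPM on PLX5622 and 136 ± 30.5 TPM on control (SD, n = 3 each). Kitl averaged 82.2 ± 5.15 TPM on PLX5622 and 84.0 ± 12.3 TPM on control, and Flt3l averaged 44.6 ± 7.45 TPM on PLX5622 and 48.7 ± 17.2 TPM on control (SD, n = 3 each). Only neighbours in this order were compared, by whether mean ± SD overlapped. On both diets Kit overlapped with Csf1 and Csf1 with Kitl, whereas Flt3l lay apart from Kitl. Below them the means stood in a different order on each diet, and whether the order depends on the diet was not tested. On PLX5622 Il34 overlapped with Csf3r, Csf3r with Csf1r, and Csf1r with Pdgfrb. On control Csf1r stood next after Flt3l and apart from Il34 below it, by a ratio of 2.54. There Il34 overlapped with Pdgfrb, and Pdgfrb with Csf3r. Pdgfra and Flt3 were last on both. Apart from Kit, no receptor exceeded 8.68 TPM in any library, and apart from Il34, no ligand was under 29.2 TPM.

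Among genes that relay or end the CSF1R signal, none passed the test. Of 20 such genes 17 were tested, 12 had a fold change below 0 and 0 had an unadjusted p under 0.05, with a median log2 fold change of -0.15. Over all genes tested 46.2% lay above 0 and the median was -0.02. Several are used by many receptors and were expressed at high levels, such as the adaptor Grb2 at 95.4 ± 7.43 TPM on PLX5622 and 96.3 ± 3.99 TPM on control and the kinase Lyn at 82.2 ± 10.8 TPM on PLX5622 and 94.1 ± 12.5 TPM on control (SD, n = 3 each). The smallest p belonged to Tyrobp, an adaptor of myeloid cells, with 4.27, 6.40 and 4.39 TPM on PLX5622 and 14.6, 5.82 and 6.92 TPM on control (limma, adjusted p = 0.99998).

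Other colony stimulating factors and blood cell receptors gave 3 genes above and 3 below 0 of 6 tested, and 0 at an unadjusted p under 0.05. Csf2rb2, a receptor subunit for interleukin 3 in mice, averaged 10.03 ± 0.282 TPM on PLX5622 and 9.16 ± 1.63 TPM on control (SD, n = 3 each). Csf2ra, a receptor subunit for granulocyte-macrophage colony stimulating factor, averaged 4.28 ± 0.765 TPM on PLX5622 and 4.83 ± 1.43 TPM on control. Csf3, the ligand of the receptor made from Csf3r, had 9.99, 8.30 and 2.76 TPM on PLX5622 and 16.3, 6.04 and 5.08 TPM on control. Its libraries overlapped, and the log2 fold change was -0.32 (95% interval -1.52 to 0.89), while its receptor was higher on PLX5622 in each library.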

How the data were processed

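Gene expression was measured in 6 libraries, 3 per diet, grouped and numbered by the sample titles. Per the submitters' processing notes, the tools were DESeq2 1.32.0 in R 4.1.0, featureCounts from Subread 2.0.1 and STAR 2.7.10a, with mouse build mm39; the annotation and filters are not stated there, and the libraries were not stranded, per the labels' protocols. The authors' expression table holds TPM for 26264 genes, each library scaled to the same total. The authors' deposited comparison table holds, for 15097 genes, a mean normalized count (a signal, the count divided by a size factor), a log2 fold change with its standard error, a Wald score, and p-values before and after adjustment.

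PLX5622 was compared with control on log2(TPM + 1) with limma 3.58.1 (R 4.3.3, intensity trend, Benjamini-Hochberg adjustment) over 13739 genes, leaving out 12525 with a mean under 1 TPM. TPM are not counts, so no count model was the main test, and a fold change on this scale understates that of weak genes. Intervals are 95% intervals of the fit. Reads were recovered from TPM and the deposited mean normalized counts: 100% of values below 50 reads lay within 0.05 of a whole number. Reads and floors (3 reads) cover counting error only. Tested on simulated data for PLX5622 versus control over 13739 genes, limma called 17.2% of genes changed 1.5-fold, 44.6% at 2-fold, 83.6% at 4-fold and 90.6% at 8-fold, with 5.6 false calls per draw. These folds were set on the log2(TPM + 1) scale, so for weak genes they stand for larger changes in TPM. Many genes were changed in each draw, which eases the adjusted threshold, so the shares need not hold for members such as Csf1r and Csf3r. The recovery step, tested on simulated data, returned all reads of 1 to 49 exactly.

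Genes named are the 10 members, in each of 12 other lists the 3 with the smallest p, Pecam1, Clec4f, and the 5 genes closest in pattern to Csf1r and to Csf3r; further list genes were named after their values were seen. Some genes that this rule names are not reported here. The members and lists were chosen with earlier results of these data known. The annotation and promoters used are of another build, GRCm38, than the authors'.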

Additional observations from a re-analysis of the deposited data

How the results depend on the processing

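Under 18 alternatives (3 other pseudocounts, 2 other filters, 2 other scalings, limma with no trend, robust limma, weights per library, a replicate block, voom on recovered reads, and each library left out) limma called 0 genes and 0 of the members at an adjusted p under 0.05. The number of members at an unadjusted p under 0.05 was 1 when genes under a mean of 5 TPM were dropped, Csf3r among them. It was 3 with weights per library, where Csf1 (-0.32, limma unadjusted p = 0.0195) joined, and between 1 and 4 without single libraries. The 4 arose without control replicate 1, with Csf1 and Flt3l. The background at that p moved as well. Of 13739 genes it was 459 in the main fit, 674 with weights per library and 847 without control replicate 1. Without single libraries it was between 304 and 847, and with the 5 TPM filter it was 333 of 10961 genes. Csf1r kept a log2 fold change below 0 in all 18, from -1.45 to -0.65, with unadjusted p from 0.00508 to 0.0387 and adjusted p from 0.804 to 1.0. Without single libraries it was between -1.42 and -0.82. Csf3r stayed above 0 in 17 alternatives, with unadjusted p under 0.05 in 14. Kitl turned to 0.00643 with quantile normalization. Without single libraries, Il34 was between 0.07 and 0.41, Kit between -0.32 and 0.16, Kitl between -0.15 and 0.0452, Flt3l between -0.40 and 0.13 and Pdgfrb between -0.19 and 0.46; the cause was not tested. Csf1r against Kupffer markers was between -0.81 and -0.51 without single libraries and -0.77 with a pseudocount of 0.1 TPM. Same-numbered libraries had correlations of deviations of 0.196, 0.136 and 0.0873, each the highest for its number. The labels name no pairing, and whether the numbers mark one was not tested. With the replicate block limma called 0 genes, and the smallest adjusted p was 0.378. In that fit 2 members and 821 genes had an unadjusted p under 0.05, beside 459 genes in the main fit. Scaling moved the median of all genes by less than 0.1. Depth limits Flt3 and Pdgfra, which rest on few reads. It also limits the PLX5622 level of Spi1, at 4, 4 and 1 reads, beside 39, 53 and 44 reads on control.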
